A study of Mus musculus with 15 samples.

Results

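Pluripotency transcription factors are the DNA-binding proteins that hold cells of the early embryo, and embryonic stem cells made from it, in a state from which every tissue can form. Here 10 of them were followed across all 8 RNA-seq libraries of the study, chosen by gene symbol: Pou5f1 (which encodes OCT4), Sox2, Nanog, Klf4, Klf5, Klf17, Esrrb, Tfap2c, Nr5a2 and Sall4. All 10 symbols were found among the 14392 genes of the expression table. The rule itself uses no measured value, but the set was chosen with earlier results of these data known. The study compared wild type (WT) embryos with embryos that lacked maternal Usp16 (cKO), to learn how this deubiquitinase of histone H2A affects zygotic genome activation, the first large wave of transcription from the embryo's own genome. WT embryos came from Usp16+/+ mothers and cKO embryos, named Usp16KO in the sample labels, from Usp16 fl/fl;Gdf9-Cre mothers, in which Cre is driven by an oocyte promoter. Both kinds of female were on a C57BL/6 background, were 21 to 23 days old, were superovulated and were mated with WT males, so that cKO embryos lacked the maternal product and carried an intact paternal Usp16 allele. Zygotes and 2-cell embryos of each genotype made 4 groups of 2 libraries, and each library was a pool of 10 whole embryos. The number of mothers behind a pool is not given in the sources used here.

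POU5F1 and SOX2 are known to bind DNA together at composite sites, and NANOG, the Krüppel-like factors, ESRRB, TFAP2C, NR5A2 and SALL4 bind many of the same control regions in embryonic stem cells. In the mouse some of these genes are transcribed in the growing oocyte, so that their mRNA is already in the egg, and others are first transcribed in the embryo. H2AK119ub1, the mark that USP16 removes, is written by Polycomb repressive complex 1, which is known to gather at CpG-rich promoters.

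The promoters of the members differed widely in CpG content. RefSeq start sites on GRCm38.p6 gave 11 windows of 300 bases for 7 of the 10 members, each running from 250 bases before to 50 bases after a start. The first window of Klf4 held 40 CpG dinucleotides, that of Sox2 27 and that of Pou5f1 11, whereas Esrrb had 7, Klf17 6, Nanog 4 and Nr5a2 2. The second window of Pou5f1 held 6, those of Nr5a2 and Esrrb 7 and that of Nanog 4. Which start is used in these embryos was not tested. The median over all 32851 windows was 7. Of these windows 96.1% held fewer CpGs than the first window of Klf4, 84.5% fewer than that of Sox2, 58.6% fewer than that of Pou5f1 and 31.4% fewer than that of Nanog. The sequences of Klf4, Sox2 and Pou5f1 are given, with CpG in capitals, because Pou5f1 and Sox2 were the members called lower in cKO 2-cell embryos and Klf4 is the most CpG-rich of those matched. They lie at chr4:55532426-55532725 (minus strand), chr3:34649745-34650044 (plus strand) and chr17:35505782-35506081 (plus strand), all on GRCm38.p6 and printed 5′ to 3′ along the gene.
Klf4: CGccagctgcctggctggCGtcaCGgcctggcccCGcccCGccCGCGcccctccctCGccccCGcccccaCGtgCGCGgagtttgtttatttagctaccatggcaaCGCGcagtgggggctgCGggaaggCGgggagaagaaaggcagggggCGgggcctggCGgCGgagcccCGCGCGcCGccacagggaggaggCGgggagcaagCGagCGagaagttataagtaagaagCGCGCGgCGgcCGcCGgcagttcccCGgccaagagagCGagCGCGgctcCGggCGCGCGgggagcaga
Sox2: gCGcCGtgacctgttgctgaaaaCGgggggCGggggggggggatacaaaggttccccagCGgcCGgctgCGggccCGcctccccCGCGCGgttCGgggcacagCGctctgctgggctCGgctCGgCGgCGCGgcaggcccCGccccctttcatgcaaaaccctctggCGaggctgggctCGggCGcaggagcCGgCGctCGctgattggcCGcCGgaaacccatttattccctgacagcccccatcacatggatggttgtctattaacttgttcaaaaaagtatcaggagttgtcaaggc
Pou5f1: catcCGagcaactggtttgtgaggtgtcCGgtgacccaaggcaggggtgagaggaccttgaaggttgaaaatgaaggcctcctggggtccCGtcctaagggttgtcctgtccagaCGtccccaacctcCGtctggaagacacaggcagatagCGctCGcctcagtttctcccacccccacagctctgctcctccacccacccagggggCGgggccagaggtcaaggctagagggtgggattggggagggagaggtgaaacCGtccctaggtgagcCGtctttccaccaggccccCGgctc
The first Nanog window, at chr6:122707239-122707538 (plus strand), is given because it carries the known composite element of OCT4 and SOX2, which is in capitals.
Nanog: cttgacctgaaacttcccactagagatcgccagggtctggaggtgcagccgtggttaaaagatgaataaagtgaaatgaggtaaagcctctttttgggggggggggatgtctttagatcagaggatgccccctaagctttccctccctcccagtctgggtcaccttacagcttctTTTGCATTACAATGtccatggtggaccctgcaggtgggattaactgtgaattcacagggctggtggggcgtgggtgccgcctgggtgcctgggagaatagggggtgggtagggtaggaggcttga
This element was searched on both strands as TTTGCAT followed by ACAATG with at most 3 bases between them. It starts 75 bases before the start site, stands in both overlapping Nanog windows, and was found in 3 of the 32851 windows, or 0.00913%. The octamer ATGCAAAT, whose reverse complement overlaps the start of that element, was in 1.74% of all windows and in none of the 11. The GC box GGGCGG, a sequence bound by Sp and Krüppel-like factors, was in the first windows of Pou5f1, Sox2, Klf4 and Klf17 and in 35.7% of all windows. The nuclear receptor site AAGGTCA was in none of the 11 and in 4.72% of all, and the TATA box TATAAA was in the first Nr5a2 window and in 13.6% of all. These matches describe the letters of the windows, on another build than the mm9 used for the reads.

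On mm9, in the GENCODE M1 annotation, 9 members have a locus and all 9 are protein coding. Pou5f1 is at chr17:35642982-35647721, Sox2 at chr3:34548927-34551383 and Nanog at chr6:122657507-122664651, all on the plus strand. Klf4 (chr4:55540013-55545347) and Klf17 (chr4:117430441-117438253) share a chromosome on the minus strand, and Klf5 is at chr14:99697910-99712624 on the plus strand. Esrrb is at chr12:87702067-87862578 on the plus strand, and Nr5a2 (chr1:138740161-138857004) and Sall4 (chr2:168573832-168593443) are on the minus strand. Nanog and Klf5 each have 1 other locus on mm9 that matches at least 50% of the coding sequence at 90% identity or more, so their levels are uncertain to the extent that reads were shared. The other 7 have none.

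Expression was measured as FPKM, a level per length of transcript, and every value under 1 had been set to 1 by the authors, so 1 is called the floor here and a fold against a group at the floor is a lower bound. The table holds no read counts, so sequencing depth is unknown and precision rests on 2 libraries a group. FPKM summed to between 547752 and 593317 in 7 libraries and to 770989 in cKO 2-cell replicate 2. Usp16 itself was at 184 and 187 FPKM in WT zygotes and at 16.8 and 22.0 in cKO zygotes. At the 2-cell stage it was at 168 and 183 in WT and at 168 and 84.8 in cKO embryos, so that the targeted gene separated the genotypes in zygotes, while cKO 2-cell replicate 1 lay at the WT level. All 12 oocyte and zygote markers of a list were in the table. They summed to between 12305 and 12855 FPKM in zygotes, to 5118 and 6268 in WT 2-cell and to 1260 and 2767 in cKO 2-cell embryos. The largest part of each sum was Oosp1. It was at 6607 to 8040 in zygotes, 3711 to 4936 in WT 2-cell and 544 to 1876 in cKO 2-cell embryos. Of 14 granulosa and cumulus cell markers 4 were in the table, and these summed to between 21.1 and 43.0 FPKM across the 8 libraries. The sum was between 25.3 and 29.7 in zygotes, 33.9 and 43.0 in WT 2-cell and 21.1 and 21.4 in cKO 2-cell embryos. Most of it was Cyp19a1 in zygotes (22.3 to 26.7) and Amhr2 in 2-cell embryos (17.8 to 32.7), while the defining marker Foxl2 was at the floor in 6 libraries and at 1.55 and 1.06 in WT 2-cell embryos. The part of such cells in the results was not tested.

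The first question was how the members stood in zygotes, where most mRNA comes from the oocyte. Klf17, a Krüppel-like factor abundant in mouse oocytes, was by far the highest, at 361 and 334 FPKM in WT and at 348 and 330 in cKO zygotes, above 98.1% of all genes in either genotype. Sall4, a zinc-finger factor needed by the inner cell mass, followed at 65.9 and 93.8 in WT and 109 and 112 in cKO zygotes. Pou5f1, the POU-domain factor without which no inner cell mass forms, came next at 52.5 and 41.4 in WT and 40.8 and 32.4 in cKO zygotes. These 3 genes did not overlap one another in either genotype. Tfap2c, an AP-2 factor of the trophoblast and germ line, stood at 12.5 and 14.7 in WT and 17.4 and 17.1 in cKO zygotes. Nanog, the homeodomain factor of the epiblast, was at 10.4 and 10.9 in WT and 20.4 and 23.9 in cKO zygotes, which put it below Tfap2c in WT and above it in cKO. The orphan nuclear receptors Nr5a2 (3.87 to 4.63 over the 4 zygote libraries) and Esrrb (3.61 to 4.59) and the factor Klf4 (2.67 to 3.70) were near one another, and in WT zygotes Esrrb and Klf4 overlapped. Sox2, the partner of OCT4, was at 1.02 in WT zygote replicate 2 and at the floor in the other 3 libraries, and Klf5 was at the floor in all 4, so a change between genotypes could not be seen for either.

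**Figure D1:**
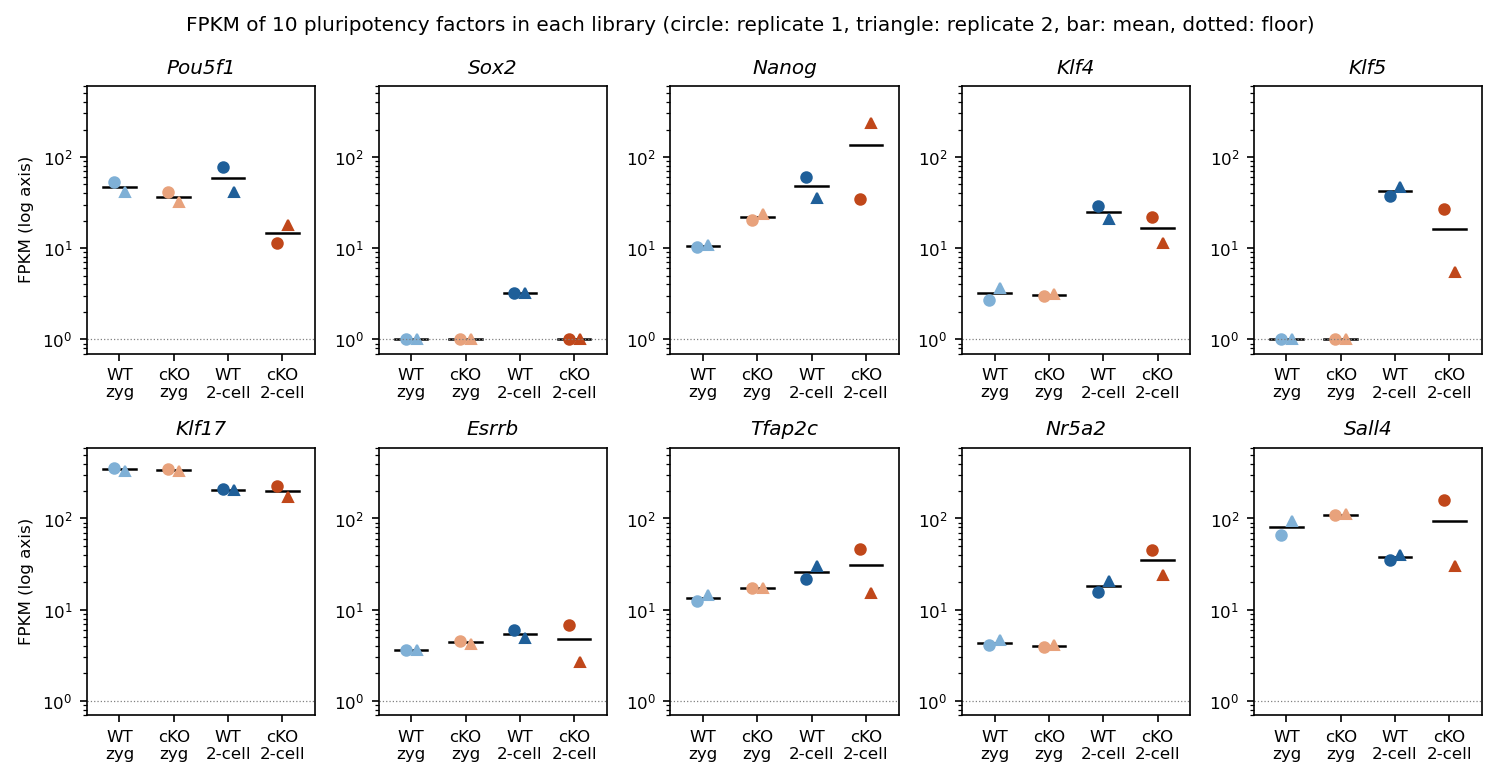
FPKM on a log axis of each of the 10 factors in the 8 libraries, by genotype and stage; circles are replicate 1, triangles replicate 2, black bars the group mean, and the dotted line is the floor of 1. Klf17 is highest in all 4 groups by mean, Sox2 is clear of the floor in WT 2-cell embryos only, and the cKO 2-cell libraries lie furthest apart for Nanog, Sall4 and Klf5.

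None of the 10 members passed a 3-fold change between cKO and WT zygotes, the study's own rule, applied here to the means of the 2 libraries. Across all genes this rule called 0.0486% lower and 0.104% higher. By limma, a linear model of log2(FPKM + 1) over all 8 libraries with Benjamini-Hochberg adjustment, no member was called either (adjusted p = 1 for each), where limma called 0% of all genes lower and 0.0208% higher. Nanog came closest, 2.09-fold higher in cKO, with each cKO library above each WT library. Sall4 (1.38-fold), Tfap2c (1.27-fold) and Esrrb (1.22-fold) were also above WT in both cKO libraries. Pou5f1, at 0.780 of the WT mean, and Nr5a2, at 0.910, were below it in both. These shifts did not pass the test, and the share of all genes whose libraries separate in this way is not given here. With 2 libraries against 2 an exact permutation test cannot give a two-sided p under 0.333, so separation alone carries little weight.

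From the zygote to the 2-cell stage, WT embryos gained mRNA for 5 of the 10 factors by the 3-fold rule. Klf5, a Krüppel-like factor of the first lineages, went from the floor to 37.7 and 47.3 FPKM, at least 42.5-fold higher. Klf4, its relative and a reprogramming factor, rose 7.80-fold to 28.8 and 20.9. Nr5a2, which can stand in for OCT4 in reprogramming, rose 4.19-fold to 15.8 and 20.7. Sox2 reached 3.21 and 3.23, at least 3.20-fold higher, while staying the lowest of the 10. By limma these 4 were called higher, with an adjusted p of 0.00193 for Klf5, 0.00173 for Klf4, 0.00521 for Nr5a2 and 0.000139 for Sox2, of which that of Sox2 was lost with quantile normalization (0.194). Nanog was 4.50-fold higher by the means, at 60.4 and 35.2, but was not called by limma (adjusted p = 0.0870). Across all genes the 3-fold rule called 26% higher and 8.78% lower between these groups, and limma 34.2% higher and 15.5% lower. The median log2 ratio of means was 1.30 for the members and 0.41 for all genes.

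Klf17 moved the other way. It fell to 208 and 207 FPKM in WT 2-cell embryos, 0.597 of its zygote mean (limma log2 change −0.74, SE 0.21, adjusted p = 0.0254), and was the only member that limma called lower there. That call was lost when any 1 of the 4 WT libraries was left out (adjusted p 0.0662 to 0.107), while the direction held. Sall4 was at 35.2 and 39.5 in WT 2-cell embryos, 0.468 of its zygote mean with no overlap, but did not pass limma (adjusted p = 0.262). Pou5f1 was at 77.4 and 40.8, a range that overlapped WT zygotes. Esrrb (5.98 and 4.89) and Tfap2c (21.4 and 30.0) were above their zygote libraries, 1.51-fold and 1.90-fold, without passing either rule. In the order of WT 2-cell levels Klf17 came first, and Pou5f1, Nanog, Klf5 and Sall4 followed, with every neighbouring pair of these 4 overlapping. Tfap2c and Klf4 overlapped next, and then Nr5a2, Esrrb and Sox2 were each separate from the member above.

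In cKO 2-cell embryos 2 of the 10 factors, Pou5f1 and Sox2, were more than 3-fold lower than in WT, and none was more than 3-fold higher. Across all genes the rule called 13.5% lower and 2.84% higher, so 2 of 10 is near the background. limma also called Pou5f1 and Sox2 lower and no member higher, where it called 24.6% of all genes lower and 6.16% higher. The median log2 ratio of means was −0.12 for the members and −0.38 for all genes. When libraries were rescaled by median ratios against a reference made of their geometric means, the median of all genes became 0 and that of the members 0.32. On that scale 2 other members passed 3-fold higher, Nanog (4.27-fold) and Sall4 (3.27-fold), and none passed it lower. A lower level in every embryo of a pool and fewer cells that hold the mRNA cannot be told apart in such libraries. FPKM is relative to the mapped reads of each library, so a change in total RNA per cell cannot be seen in it.

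Pou5f1 was at 77.4 and 40.8 FPKM in WT 2-cell embryos and at 11.5 and 18.0 in cKO 2-cell embryos. Both cKO libraries were below both WT libraries, and the 2 WT libraries were themselves 1.90-fold apart. The ratio of means was 0.250, or 4.00-fold lower (limma log2 change −1.89, SE 0.37, adjusted p = 0.0136). The adjusted p was between 0.0108 and 0.133 over 12 alternative analyses and under 0.05 in 7 of them. Scaled to the median gene the ratio was 0.358, or 2.79-fold lower, and without WT 2-cell replicate 1 it was 0.361, neither of which passes 3-fold. The cKO 2-cell level was also lower than in cKO zygotes, at 0.403 of that mean (adjusted p = 0.0286), a call that held in only 5 of 12 alternatives (0.00582 to 0.151). WT 2-cell embryos were at 1.26 of WT zygotes (adjusted p = 0.589). The test of the difference between these changes did not pass (interaction of genotype and stage −1.54 on the log2 scale, SE 0.53, adjusted p = 0.109).

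Sox2 was at 3.21 and 3.23 FPKM in WT 2-cell embryos and at the floor of 1 in both cKO libraries. It was thus at least 3.22-fold lower in cKO (limma log2 change −1.08, SE 0.067, adjusted p = 0.000816). limma also called its interaction of genotype and stage (−1.07, adjusted p = 0.00629), as for 11.8% of all genes. With Sox2 at or near the floor in zygotes no effect could show there, so the interaction repeats the 2-cell effect. The adjusted p of the effect at the 2-cell stage was between 4.13e-06 and 0.0598 over 12 alternatives, under 0.05 in 10. That of the interaction was between 1.11e-05 and 0.491 over 15, under 0.05 in 9. Of the 8 libraries, 5 were set to the same floor and 1 stood at 1.02, and the test does not see spread below the floor. Scaled to the median gene, with the floor set anew, Sox2 was 2.08-fold lower. Sox2 lies within Sox2ot, a noncoding gene on the same strand, and reads of a shared stretch cannot be told apart.

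**Figure D2:**
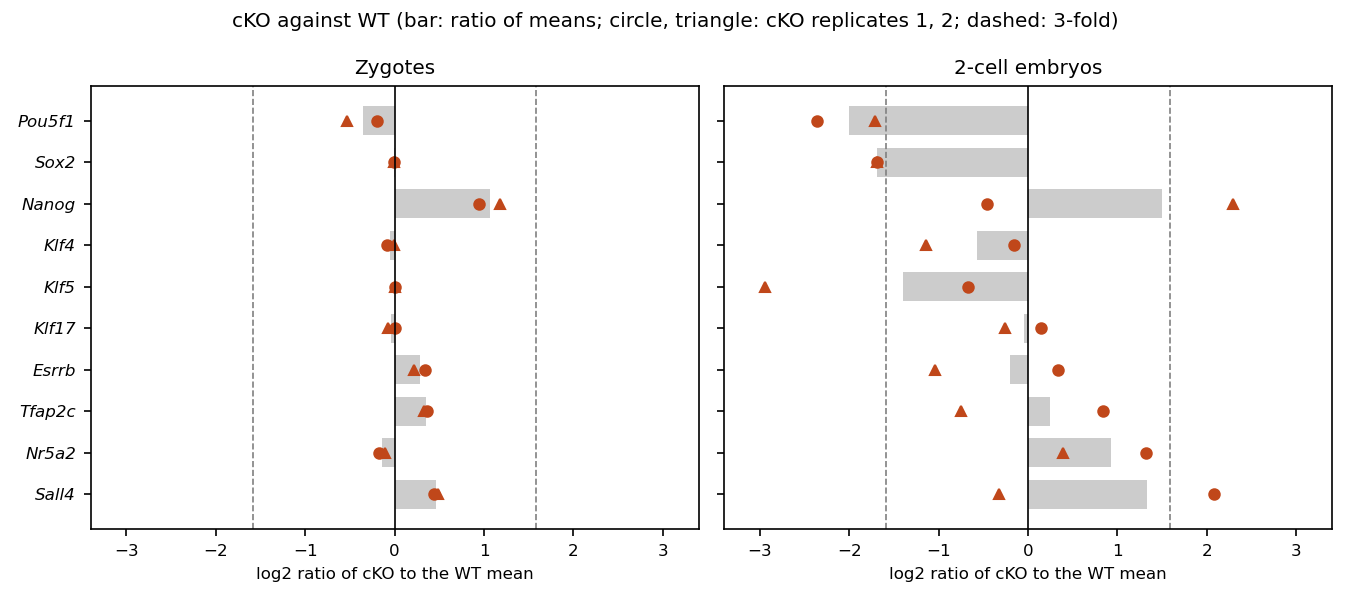
Log2 ratio of cKO to the WT mean for each factor in zygotes (left) and 2-cell embryos (right); grey bars are the ratio of means, circles and triangles cKO replicates 1 and 2, and dashed lines a 3-fold change. Pou5f1 and Sox2 pass the line at the 2-cell stage with ratios of 0.250 and 0.310, while the 2 cKO replicates lie on opposite sides of the WT mean for Nanog, Klf17, Esrrb, Tfap2c and Sall4, and under scaling to the median gene neither Pou5f1 nor Sox2 passes it.

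The Krüppel-like factors showed no change between genotypes that passed a rule at the 2-cell stage. Klf5 was at 37.7 and 47.3 FPKM in WT and at 26.6 and 5.54 in cKO 2-cell embryos, both below WT. Its ratio of means was 0.379 (adjusted p = 0.0927), with 0.130 when cKO replicate 1 was left out, which passes 3-fold, and 0.627 when cKO replicate 2 was left out. Klf4 was at 28.8 and 20.9 in WT and at 22.2 and 11.3 in cKO, with overlap and a ratio of 0.675 (adjusted p = 0.263). Klf17 was at 208 and 207 in WT and at 230 and 173 in cKO, a ratio of 0.971 (adjusted p = 0.879) that became 1.34 when libraries were scaled to the median gene, so its direction depends on the scaling. All 3 genes changed between the stages in cKO as well. Klf5 rose at least 16.1-fold from the floor and Klf4 5.44-fold, while Klf17 fell to 0.595 of its zygote mean (limma adjusted p 0.0113, 0.00390 and 0.0215). The call of Klf4 held in all 12 alternatives, that of Klf5 in 9 (0.000338 to 0.113) and that of Klf17 in 7 (0.00297 to 0.108), and both were lost when either cKO zygote library was left out.

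Nr5a2 was the 1 member with both cKO 2-cell libraries above both WT libraries. The share of all genes that separate in this way is not given here, so the separation is a description only. Nr5a2 was at 15.8 and 20.7 FPKM in WT and at 45.6 and 23.9 in cKO, 1.91-fold higher by the means. It did not pass limma (log2 change 0.84, SE 0.34, adjusted p = 0.112, 0.0136 to 0.364 over 12 alternatives and under 0.05 in 3). From zygote to 2-cell it rose 8.77-fold in cKO (adjusted p = 0.000861) and 4.19-fold in WT. The difference between these rises did not pass the test (interaction 0.94, SE 0.48, adjusted p = 0.241). Esrrb, the other nuclear receptor, was at 5.98 and 4.89 in WT and at 6.86 and 2.64 in cKO, so that WT lay between the cKO replicates. Its ratio of 0.873 (adjusted p = 0.631) turned to 1.16 when scaled to the median gene.

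Nanog and Sall4 had the widest spread between the cKO 2-cell replicates. Nanog was at 60.4 and 35.2 FPKM in WT, and at 34.9 in cKO replicate 1 against 234 in cKO replicate 2, a 6.73-fold gap. Its mean was 2.82-fold higher in cKO (adjusted p = 0.409), but cKO replicate 1 alone gave 0.730 of WT and replicate 2 alone 4.91. Sall4 went the opposite way, at 35.2 and 39.5 in WT and at 159 in cKO replicate 1 against 29.9 in replicate 2. The mean ratio of Sall4 was 2.52 (adjusted p = 0.387), with 4.24 from replicate 1 alone and 0.799 from replicate 2 alone. Tfap2c was at 21.4 and 30.0 in WT and at 45.9 and 15.3 in cKO, a ratio of 1.19 (adjusted p = 0.959). For these 3 genes the direction therefore depended on which cKO library was used. Sall4 also shares a stretch with Gm14261, a noncoding gene on the opposite strand. The paper's methods name no strand-specific step, so reads of that stretch may not be told apart.

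Spread between replicates was itself uneven. In WT 2-cell embryos no member differed by more than 3-fold between the 2 replicates, as 1.38% of all genes did. In cKO 2-cell embryos 4 of 10 members did so, namely Nanog, Sall4 (5.31-fold), Klf5 (4.81-fold) and Tfap2c (just past 3-fold), as did 13.3% of all genes. The median ratio between the cKO 2-cell replicates was 2.28 for the members and 1.47 for all genes, against 1.28 and 1.22 in WT 2-cell embryos and 1.05 and 1.10 in cKO zygotes. The members did not shift as a block: replicate 1 was the higher for Klf4, Klf5, Klf17, Esrrb, Tfap2c, Nr5a2 and Sall4, replicate 2 for Nanog and Pou5f1, and Sox2 was at the floor in both. Replicate 2 is also the library with the largest FPKM sum and the lower Usp16 value, whose part in these gaps was not tested. limma shares 1 estimate of the spread over all groups, so it takes the cKO 2-cell libraries to vary like the closer ones.

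Between cKO zygotes and cKO 2-cell embryos 4 members passed 3-fold higher and none lower. These were Klf5, Nr5a2, Nanog (6.07-fold) and Klf4, all of them among the 5 that did so in WT, and the fifth, Sox2, was at the floor at both stages. The rule called 22.8% of all genes higher and 19.2% lower. limma called Klf4, Klf5 and Nr5a2 higher and Klf17 and Pou5f1 lower, where it called 24.6% of all genes higher and 27.1% lower. Without cKO 2-cell replicate 2 the Nanog change was 0.65 on the log2 scale of the ratio, under 3-fold. The median log2 ratio of means of the members was 0.47 in cKO, beside 0 for all genes.

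**Figure D3:**
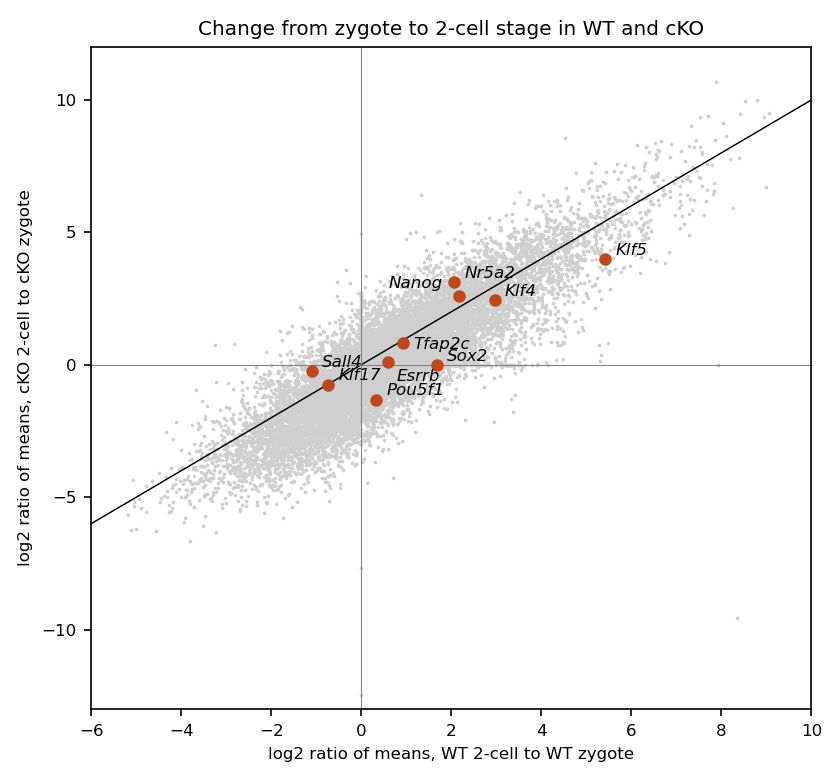
Each point is a gene, with the log2 ratio of mean FPKM from zygote to 2-cell in WT on the x axis and in cKO on the y axis; orange points are the 10 factors and the black line marks equal change. Pou5f1, Sox2 and Klf5 lie below the line, with ratios of 1.26, 3.20 and 42.5 in WT and of 0.403, 1 and 16.1 in cKO. Klf4, Esrrb and Tfap2c also lie below it, and Klf17 lies close to it. Nr5a2 (4.19 in WT and 8.77 in cKO), Nanog (4.50 and 6.07) and Sall4 (0.468 and 0.856) lie above it.

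Other genes of the pluripotency network were taken from a list of 30, of which 29 were in the table. This list, like the other lists used here, was chosen with earlier results of these data known, so its counts are descriptive. In zygotes none passed 3-fold between cKO and WT. From zygote to 2-cell in WT, 14 rose past 3-fold and none fell, where 26% of all genes rose and 8.78% fell. In cKO 13 rose, where 22.8% of all genes did, and 5 fell, where 19.2% did. Those 5 were Lin28a, Tcl1, Stat3, Dnmt3l and Eras (3.71-fold lower), a RAS-like protein of stem cells. Between cKO and WT 2-cell embryos 7 of 29 were lower and 1 higher by the 3-fold rule, where 13.5% and 2.84% of all genes were. limma called 9 lower and 4 higher, where it called 24.6% and 6.16% of all genes. Their median log2 ratio of means was 0.057. The list thus held genes far apart in both directions.

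Lin28a, an RNA-binding protein that blocks let-7 maturation, was at 22.2 and 14.1 FPKM in WT 2-cell embryos and at the floor and 4.76 in cKO, at least 6.30-fold lower. Zscan10, a zinc-finger factor of stem cells, was at 4.44 and 6.42 in WT and at the floor in both cKO libraries, at least 5.43-fold lower. Mycn, a MYC family factor, was at 8.10 and 11.5 in WT and at 2.83 and the floor in cKO, at least 5.13-fold lower. All 3 were called by limma (adjusted p 0.0160, 0.00703 and 0.00795). Tcl1, an AKT co-activator abundant in oocytes, was at 1656 and 1653 in WT and at 456 and 272 in cKO, 4.55-fold lower. Stat3, which transmits LIF signals, was at 10.3 and 14.0 in WT and at 3.64 and 2.26 in cKO, 4.12-fold lower. Dnmt3l, the cofactor of de novo DNA methylation, was at 58.4 and 49.6 in WT and at 18.4 and 15.2 in cKO, 3.22-fold lower. These 3 also passed limma (adjusted p 0.00589, 0.00640 and 0.00788), and Tcl1 fell in WT too, to 0.342 of its zygote mean. Nacc1 was at 11.2 and 6.85 in WT and at 4.87 and the floor in cKO, at least 3.08-fold lower, and did not pass limma (adjusted p = 0.0790).

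The single network gene past 3-fold higher in cKO 2-cell embryos was Dppa2, which with its partner Dppa4 is known to activate 2-cell genes in stem cells. Dppa2 was at 221 and 203 FPKM in WT and at 817 and 618 in cKO, 3.39-fold higher (adjusted p = 0.00512). Dppa4 was at 236 and 264 in WT and at 657 and 483 in cKO, 2.28-fold higher (adjusted p = 0.0183). Dppa3, a maternal protein that protects DNA methylation, was at 2958 and 2472 in WT and at 5888 and 8774 in cKO, 2.70-fold higher (adjusted p = 0.0242). For these 3 genes each cKO library lay above each WT library. Esrra, a relative of Esrrb, was at the floor in WT and at 2.09 and 1.85 in cKO, just above it (adjusted p = 0.00283).

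**Figure D4:**
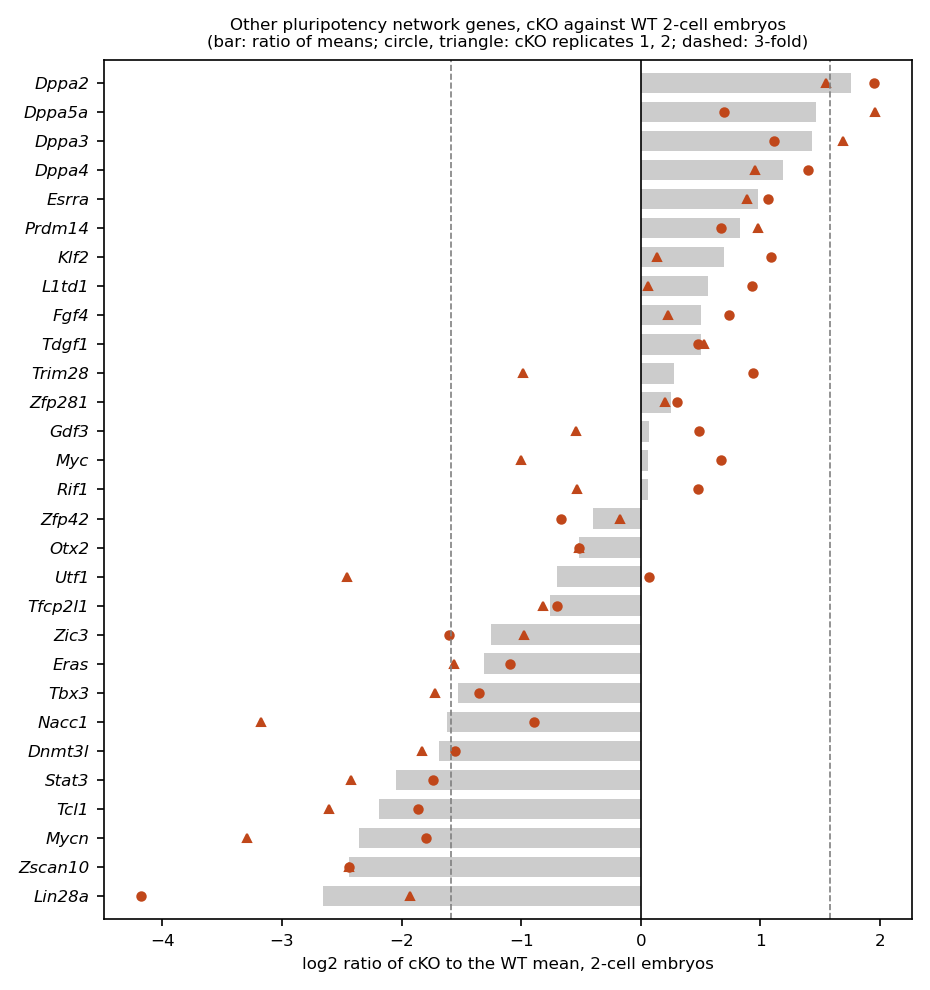
Log2 ratio of cKO to the WT mean at the 2-cell stage for the 29 network genes in the table, sorted; grey bars are the ratio of means, circles and triangles cKO replicates 1 and 2, and dashed lines a 3-fold change. The ratios run from 3.39 for Dppa2 to 0.159 for Lin28a, with 7 genes past the line on the low side and 1 on the high side.

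Close relatives of the members were compared next. Of 39 such genes, 27 were in the table, and 6 were more than 3-fold lower in cKO 2-cell embryos and none higher (limma 8 lower and 1 higher, the 1 being Esrra again). Over all genes the shares lower were 13.5% and 24.6%, so the limma count is near the background. Klf10 was at 30.7 and 32.9 FPKM in WT and at 4.11 and the floor in cKO, at least 12.5-fold lower, whereas Klf4, Klf5 and Klf17 did not pass. Klf7 averaged 18.2 in WT and 2.62 in cKO, where it was at 4.25 and the floor, at least 6.92-fold lower. Klf6 was at 3.21 and 5.32 in WT and at the floor in cKO, at least 4.26-fold lower. Thus 3 relatives of the Krüppel-like members passed the rule that none of those members passed, though the difference itself was not tested. The other Krüppel-like relatives in the table did not pass it, with ratios of cKO to WT from 0.503 to 1.97, on both sides of WT. Sox18, an endothelial relative of Sox2, was at 5.37 and 7.62 in WT and at the floor in cKO, at least 6.50-fold lower. Esrrg, a relative of Esrrb, was at 7.07 and 9.41 in WT and at 1.09 and 1.50 in cKO, 6.35-fold lower. Tfap2e, a relative of Tfap2c, was at 20.6 and 18.3 in WT and at 4.68 and 2.63 in cKO, 5.33-fold lower. All 6 passed limma (adjusted p 0.00125 to 0.00999). The median log2 ratio of means of the relatives was −0.67.

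Among 8 factors of the first lineages that were in the table, of 12 listed, Yap1 alone passed 3-fold between cKO and WT 2-cell embryos. Over all genes 13.5% were lower by this rule and 24.6% were called lower by limma, the background for the counts in this paragraph. Yap1, a coactivator that switches on the trophectoderm programme, was at 113 and 96.3 FPKM in WT and at 30.2 and 28.4 in cKO, 3.57-fold lower (adjusted p = 0.00187). limma also called Gata3, Eomes, Gata6 and Pdgfra lower, each under 5 FPKM in all 4 libraries. Of 6 listed 2-cell markers in the table, 4 were more than 3-fold lower in cKO, namely Zscan4c (6.67-fold), Zscan4d (3.48-fold), Zscan4f (6.98-fold) and Zfp352 (3.28-fold), and 5 passed limma, these 4 and Tdpoz4 (adjusted p = 0.0104). The Zscan4 genes are near-identical copies, so their separate values are uncertain. Among the 12 oocyte and zygote markers, Bmp15 (7.25-fold lower) and Oosp1 (3.57-fold lower) passed 3-fold, and 7 passed limma, all lower. The other 5 did not pass. Among them Zp3 (1.42), Ooep (1.31), Gdf9 (1.27) and Mos (1.04) had a ratio of cKO to WT above 1, and Zp2 (0.496) had one below. Of the 4 granulosa and cumulus markers in the table, Tnfaip6 was at least 4.01-fold lower, at 1.83 and 7.45 in WT and 1 and 1.32 in cKO (adjusted p = 0.102), and Amhr2 was called lower by limma (adjusted p = 0.0351), while Foxl2 and Cyp19a1 passed neither rule. The part of the markers that were lower at the same stage as Pou5f1 and Sox2 was not tested.

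The genes whose profile over the 8 libraries was most like that of a member were sought by Pearson's r of log2 FPKM among 9179 genes above the floor in at least 6 libraries. This is a description over libraries that share stage and genotype. For Pou5f1 they were Evl (r = 0.982) and Josd1 (0.979), for Nanog Dennd5b (0.994) and Exosc2 (0.992), and for Sall4 Rabgap1 (0.973) and Ddx24 (0.965). Nr5a2 was most like Psmd7 (0.998) and Tfg (0.997), Esrrb like Rims3 (0.964) and Zc3h14 (0.957), and Tfap2c like Zscan12 (0.988) and Rrm2 (0.979). Klf4 was most like Nrd1 (0.995) and Fam118a (0.993), and Klf17 like Prpf6 (0.995) and Nup88 (0.995). No other member of the 10 was among the 2 likest genes of any member. Sox2 and Klf5 were at the floor in too many libraries for this comparison.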

How the data were processed

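RNA-seq was analysed in 8 Smart-seq2 libraries of 10 embryos each, grouped by the genotype and stage in the sample labels. The study's ChIP-seq was not analysed here. Reads had been trimmed by the authors to 50 bases and mapped to mm9 (TopHat2 2.1.1 in the submitters' processing notes). The authors computed FPKM with Cufflinks 2.2.1, left out genes under 1 in all samples and set other values under 1 to 1. The deposited FPKM carry no counts, and the annotation is not given in the sources used here.

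From these, groups were compared by the ratio of means (past 3-fold) and by limma 3.58.1 (R 4.3.3) on log2(FPKM + 1), with 4 groups in 1 model, 4 residual degrees of freedom, a trend, and Benjamini-Hochberg adjustment over 14392 genes at 0.05. Fold changes on that scale understate low genes. Nothing says that replicates came from separate animals, so p-values measure a spread that may be technical. Named were the members, Usp16, the 2 genes most like each member, and of each list the genes past 3-fold between cKO and WT 2-cell embryos (at most 6 with all cKO libraries on one side), plus any gene in a count of 5 or fewer. Dppa3, Dppa4, Amhr2, Cyp19a1 and Foxl2 were named for their counts or levels. The members and lists were chosen with earlier results of these data known. Other loci were searched with blastn 2.17.0. The fold rule and limma were also run on simulated data with a common spread, taken from the groups other than cKO 2-cell. That run does not bear on the wider spread of the cKO 2-cell libraries. Python 3.11.15, numpy 2.4.6, pandas 2.3.3 and matplotlib 3.10.9 were used. Alternatives covered the pseudocount, scaling, threshold, mean, filter, model and each library.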

Additional observations from a re-analysis of the deposited data

Results flagged for a closer look

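Sox2 was picked out because limma called its interaction of genotype and stage. The effect at the 2-cell stage minus that in zygotes was −1.07 on the log2 scale (limma adjusted p = 0.00629). At the 2-cell stage 2 of 2 cKO libraries were at the floor and 2 of 2 WT libraries above 3 FPKM. Sox2 was at or near the floor in zygotes, so an effect there could not be seen and the difference repeats the 2-cell effect. Nr5a2 was picked out because each cKO library was below each WT library in zygotes and above each at the 2-cell stage. The share of all genes that do so is not given here. In zygotes the genotypes nearly touched, with the higher cKO library at 4.06 FPKM and the lower WT library at 4.08. Its effect at the 2-cell stage minus that in zygotes was 0.94, and the test of that difference did not pass (limma adjusted p = 0.241). Groups of 2 libraries are too small to look for single outlying samples.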

How the results depend on the processing

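Depth is unknown, 2 libraries a group carry all precision, and values under the floor are lost, which bounds Sox2 and Klf5. The number of members past 3-fold lower at the 2-cell stage, 2 as reported, was 1 with a pseudocount of 1, 0 with median-ratio scaling and 1 when every library had to pass; the number higher, 0 as reported, was 2 with median-ratio scaling and 2 at a 2-fold threshold. At 2-fold, the counts of 0 became 1 for higher in cKO zygotes and 1 for lower between the stages in WT and in cKO. Network genes higher (1 reported) were 4 with median-ratio scaling, 0 with sum scaling, 4 at 2-fold and 0 when every library had to pass, where those lower (7) were 2. For limma, members lower at the 2-cell stage (2) were 1 with median-ratio scaling, 1 with quantile normalization, 1 with weights by group and 0 with only the 4 libraries compared, and those higher (0) were 2 and 1 with those scalings. Members lower between the stages in cKO (2) were 1 with median-ratio scaling, 0 with weights and 0 with only 4 libraries; in WT (1) they were 2 with only 4 libraries. The Sox2 interaction (1) was 0 with quantile normalization. Klf17 at the 2-cell stage reversed to 0.42 with median-ratio scaling (adjusted p = 0.0427). The cause was not tested beyond the construction of each setting. Over all genes at the 2-cell stage, calls in either direction (lower first), 1940 and 409 by 3-fold, were 905 and 993 with median-ratio scaling, 2413 and 246 with sum scaling, 1156 and 304 with the pseudocount, 4120 and 1259 at 2-fold and 982 and 111 when every library had to pass. For limma, 3538 and 887 became 1747 and 1437, 1464 and 1370 with quantile normalization, 854 and 120 with weights and 0 and 0 with only 4 libraries, where no gene passed.

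Leaving out 1 library in turn, with a lone sample assumed to vary like the other groups, gave between 1 and 3 members past 3-fold lower at the 2-cell stage, 0 and 1 higher, and 6 to 9 network genes lower and 1 to 2 higher. In cKO between the stages it gave 0 to 1 lower and 3 to 4 higher. For limma it gave 1 to 5 lower and 0 to 2 higher at the 2-cell stage, 0 to 0 lower in WT between the stages, 0 to 3 lower and 2 to 5 higher in cKO, and 0 to 3 lower and 0 to 2 higher for the interaction. Without cKO 2-cell replicate 1, Nanog (2.32, adjusted p = 0.00998) was called higher and Klf5 (−2.72, 0.00159), Klf4 (−1.05, 0.0372) and Esrrb (−0.82, 0.0173) lower; without replicate 2, Sall4 (2.06, 0.00679) and Nr5a2 (1.29, 0.0136) were called higher, and Esrrb between the stages in cKO reversed from −0.57 without replicate 1 (0.0342) to 0.54 (0.0429). Pou5f1 was lost without WT 2-cell replicate 1 (−1.44, 0.0608). Of all 630 limma values of members under alternatives, 36 changed sign with neither value called.

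Replicate numbers are shared by the groups with no pairing described. Deviations of same-numbered libraries correlated at 0.497 in zygotes and −0.239 in 2-cell embryos. They thus moved together in zygotes but not in 2-cell embryos, and whether libraries were paired is not settled. With the replicate block, limma members lower were 1 at the 2-cell stage (Pou5f1 −1.89, adjusted p = 0.0526), 0 between the stages in WT, 0 in cKO and 0 for the interaction, and calls over all genes at the 2-cell stage were 2635 and 527. A crossed block, chosen after seeing the data, gave 3636 and 969.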
